A study of Saccharomyces cerevisiae with 12 samples.

Results

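The genes described here encode the 26S proteasome of budding yeast, Saccharomyces cerevisiae, together with RPN4, the gene of its main transcriptional activator. The 33 members were taken by locus tag from a table of 7127 features: 14 subunits of the 20S core, 6 ATPases and 12 non-ATPase subunits of the 19S regulatory particle, and RPN4. All 33 were found in the table and passed the filter on low counts, as did 6157 features in all. RNA sequencing libraries were compared from 4 groups of 3 biological replicates. The first group was the NTT1 strain given 5 mM extracellular ATP for 1 h, and the second was the untreated NTT1 strain. The third was the wild type with an empty vector given 5 mM ATP for 1 h, and the fourth was the untreated wild type. NTT1 is a nucleotide transporter of the microsporidian parasite Encephalitozoon cuniculi, and per the labels it was integrated in the genome as a PH-NTT1 construct in a BY29034 background that also carries the QUEEN reporter. The labels give the reporter to the NTT1 strain alone, and a difference between the strains can come with either construct. Untreated wild-type libraries are labelled BY29034, BY29035 and BY29036, and treated ones BY29037, BY29038 and BY29039. It is not stated whether each name is an isolate of its own. All cultures grew in complete synthetic medium at 30 °C to an OD600 of 0.4 to 0.5.

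The 26S proteasome degrades proteins tagged with ubiquitin. Its core is a barrel of alpha rings around beta rings, of which PRE3, PUP1 and PRE2 encode the proteolytic subunits. The 19S particle caps the barrel: a ring of ATPases, RPT1 to RPT6, unfolds the substrate and threads it into the core, RPN1, RPN10 and RPN13 bind ubiquitin or ubiquitin-like domains, and RPN11 removes the ubiquitin chain. Subunit genes share a promoter sequence, the proteasome-associated control element, to which the zinc-finger protein Rpn4 binds. Rpn4 is itself a short-lived substrate of the proteasome, in part through the ubiquitin ligase Ubr2 with its partner Mub1 and the conjugating enzyme Rad6. Transcripts of RPN4 and of its target genes were measured here, and not the proteins. The p-values below test differences between the means of groups of 3 cultures. In the main fit the spread between replicate cultures was estimated for each gene over all 4 groups, with information shared across genes.

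The control element was looked for in the promoters because the subunits share it and RPN4 encodes the protein that binds it. The letters GGTGGCAAA, matched exactly on both strands in the window of 250 bases before to 50 bases after each start codon of the R64 genome, were found in 27 of the 32 subunit promoters, which is 84.4%, against 72 of 6001 protein-coding promoters, which is 1.2%. The 6001 promoters include those of the subunits. Since the element is described as shared by subunit genes, its presence in them is not a result of these data. The 27 promoters held 1 match each, 19 on the strand of the gene and 8 on the other. Its first base lay 84 to 183 bases before the start codon, with a median of 120 bases. Among subcomplexes, 12 of 14 core genes, 6 of 6 ATPase genes and 9 of 12 non-ATPase genes had it. The promoters of PRE5, PUP1, RPN8, RPN10 and RPN13 had no exact match, nor had that of RPN4. Those of PRE5, PUP1 and RPN8 hold AGTGGCAAA, which is 1 letter away. Those of RPN10 and RPN13 hold GGTGGCGAA, also 1 letter away, in RPN10 on the other strand. How many other promoters hold these near forms was not counted. A match is a string of letters and was not tested as a binding site. The matches with 16 bases on each side are shown for those subunits with the highest or lowest fold change of their subcomplex that have one, read 5′ to 3′ on the strand of the gene in RefSeq R64, with the element in capitals. Where the capitals read TTTGCCACC the element lies on the other strand.
PRE10, chrXV:1018850-1018890, minus strand: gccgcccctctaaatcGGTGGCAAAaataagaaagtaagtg
PRE1, chrV:177677-177717, plus strand: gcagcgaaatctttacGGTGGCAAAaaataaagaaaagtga
RPT3, chrIV:1261489-1261529, plus strand: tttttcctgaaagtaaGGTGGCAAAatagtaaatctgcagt
RPT2, chrIV:437900-437940, plus strand: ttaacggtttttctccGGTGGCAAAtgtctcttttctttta
RPT4, chrXV:813796-813836, minus strand: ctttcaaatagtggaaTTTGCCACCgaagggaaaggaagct
RPN9, chrIV:1322080-1322120, plus strand: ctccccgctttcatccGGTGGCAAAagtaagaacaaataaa
RPN2, chrIX:220795-220835, minus strand: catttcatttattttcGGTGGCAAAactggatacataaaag

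The shorter core GGTGGC, which lies within the element, was present in 29 of 32 subunit promoters, or 90.6%, against 416 of 6001, or 6.93%. RPN10 and RPN13 each carried this shorter form, which is in capitals here and reads GCCACC where it lies on the other strand.
RPN10, chrVIII:498965-499005, plus strand: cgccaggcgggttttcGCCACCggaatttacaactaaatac
RPN13, chrXII:965650-965690, minus strand: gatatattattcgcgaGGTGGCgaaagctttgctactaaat

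The whole window of RPN4 is shown beside that of PRE1, a core gene, because the transcripts of both genes are followed through the comparisons below. Capitals mark the element in PRE1. In the RPN4 window none of the letters searched was present, which also included TTAGTAA, the letters of a Yap1 element (447 of 6001 promoters, 7.45%), and CCGCGG, the core of a Pdr1 and Pdr3 element (74 of 6001 promoters, 1.23%). The window ends 250 bases before the start codon, and sequence further upstream was not searched.
RPN4, chrIV:416659-416958, minus strand: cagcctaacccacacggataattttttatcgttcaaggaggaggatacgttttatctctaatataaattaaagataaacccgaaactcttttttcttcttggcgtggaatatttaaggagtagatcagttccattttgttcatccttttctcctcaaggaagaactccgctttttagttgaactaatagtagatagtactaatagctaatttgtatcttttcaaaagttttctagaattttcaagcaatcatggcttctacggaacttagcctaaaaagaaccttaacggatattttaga
PRE1, chrV:177585-177884, plus strand: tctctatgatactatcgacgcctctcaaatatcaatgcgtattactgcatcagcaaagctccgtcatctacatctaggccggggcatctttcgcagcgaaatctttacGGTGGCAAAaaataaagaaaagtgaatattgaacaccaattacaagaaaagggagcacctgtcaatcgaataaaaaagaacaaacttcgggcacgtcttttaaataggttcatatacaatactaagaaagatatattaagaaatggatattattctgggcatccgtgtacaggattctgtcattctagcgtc

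Library totals ranged from 14845855 to 20714804 counts. A member gene had between 1683 and 11226 counts in a library. Across genes, which are not independent replicates, the log2 CPM of replicates had a Pearson's r of 0.992 to 0.996 in the treated groups and untreated NTT1, and of 0.977 to 0.989 in untreated wild type. CPM is the usual count-per-library-size unit, after TMM scaling of the library sizes. It is a share of the RNA in a library, so that neither cell number nor total RNA per cell can be read from it.

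Levels of the members are given per kilobase of coding length, so that genes can be compared with each other. Over the 12 libraries the mean level ran from 134.96 CPM per kb for RPN1, a scaffold subunit of the base, to 436 CPM per kb for SCL1, the alpha 1 subunit, a ratio of 3.23. The 14 core genes had a median level of 339 CPM per kb, the 6 ATPase genes 223 and the 12 non-ATPase genes 207. These subcomplexes also differ in coding length. PRE10, the longest core gene, has 867 coding bases, and RPT6, the shortest ATPase gene, has 1218. Among the non-ATPase genes RPN13 is the shortest at 471 and RPN1 the longest at 2982. Whether the level per kb depends on length was not tested. RPT1 was the highest ATPase gene at 317 CPM per kb, and RPT4 the lowest at 203. RPN13, a ubiquitin receptor, was the highest non-ATPase gene at 258 CPM per kb. RPN4 was the lowest of the 33 members, at 83.01 CPM per kb.

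Both ends of the order were shared by the 4 groups. The lowest subunit was RPN1 and the highest SCL1 in each of them, with a ratio of 3.29 in treated NTT1, 3.30 in untreated NTT1, 3.18 in treated wild type and 3.17 in untreated wild type. SCL1 stood at 439 ± 15.9 CPM per kb in treated NTT1, 451 ± 30.3 in untreated NTT1, 427 ± 19.9 in treated wild type and 428 ± 47.3 in untreated wild type (SD, n = 3 each). RPN1 stood at 134 ± 1.67, 137 ± 10.5, 134 ± 7.17 and 135 ± 15.2 CPM per kb in the same 4 groups. Neighbours in the order, such as PRE2 at 365 and PRE3 at 364 CPM per kb over the 12 libraries, differed by less than their spread between libraries. Levels were set on coding length because untranslated parts are not in the gene models used, which can shift a gene's place in this order.

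**Figure D1:**
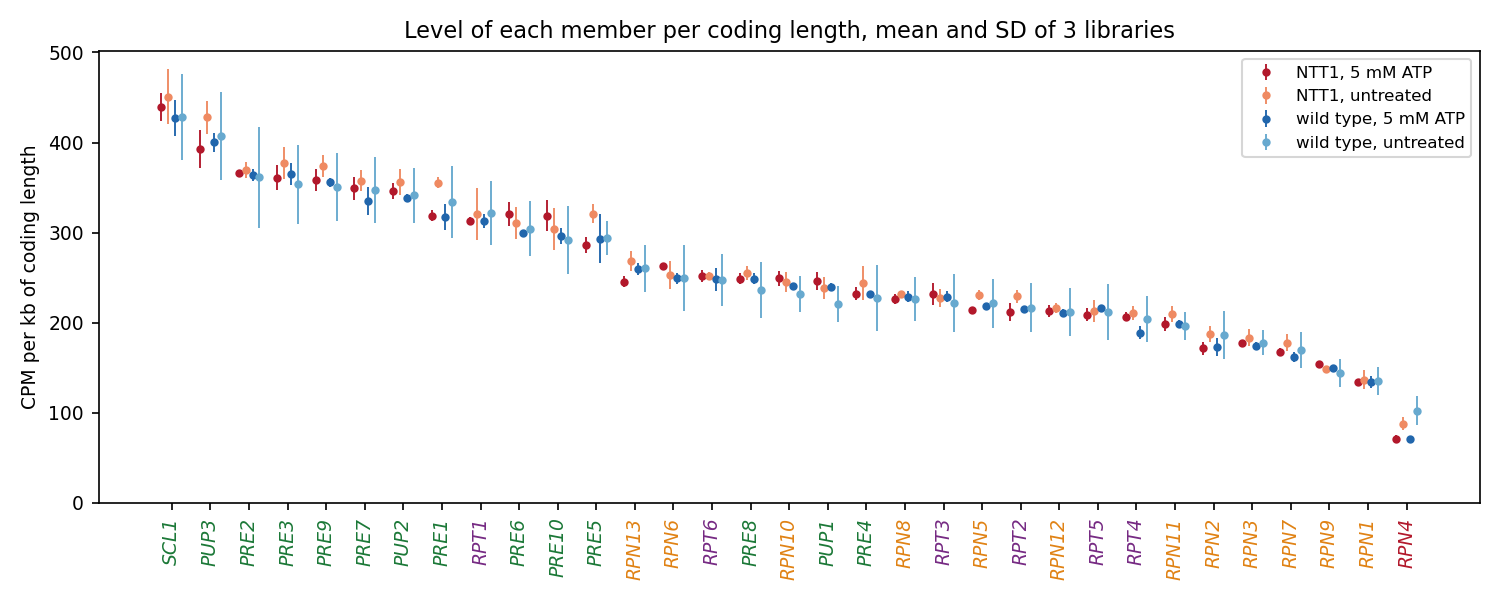
Level of each of the 33 members in CPM per kb of coding length (y axis), ordered by the mean over 12 libraries, with the mean and SD of 3 libraries in each group; name colours mark core (green), ATPase (purple), non-ATPase (orange) and RPN4 (red). Core genes fill most of the left side, RPN4 is at the right end, and the 4 groups of each subunit lie close together.

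RPN4 (YDL020C) lies on the minus strand at chrIV:415113-416708 in R64. The first comparison asks how extracellular ATP changed these transcripts in the strain with the transporter. No member passed an adjusted p of 0.05 in the edgeR quasi-likelihood test over all 6157 genes, of which 4.47% did, 2.97% as higher and 1.49% as lower, and 1 member had an unadjusted p under 0.05, against 21.7% of all genes. With upper-quartile scaling 150 genes were called higher and 150 lower, against 183 and 92 here. The member with the small p was RPN4. It measured 105, 120 and 113 CPM in the 3 treated NTT1 libraries, and 133, 133 and 153 CPM in the 3 untreated ones. Each treated library was below each untreated one, as for 17.7% of all genes. The log2 fold change was -0.31 (SE 0.10, 95% interval -0.54 to -0.086), with an edgeR adjusted p of 0.108. The call depends on how the spread was estimated. The adjusted p was 0.0326 when the 6 NTT1 libraries were fitted by themselves and 0.0132 without untreated wild-type replicate 3, a library that enters this comparison through the shared estimate of spread. Over the 12 fits that left out 1 library it reached 0.301, and the log2 fold change ran from -0.37 to -0.24.

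The 32 subunit genes had a median log2 fold change of -0.036 with ATP in NTT1, with 7 of 32 above 0, and ranged from -0.17 to 0.070. Over all genes tested the median was -0.0029 and 49.2% were above 0. The subunit median was -0.070 with 5 above 0 without untreated NTT1 replicate 2, and -0.013 with 11 above 0 without untreated NTT1 replicate 1. With upper-quartile scaling it was -0.071, where the median over all genes was -0.037. The median size of the change, whatever its sign, was 0.046 in the subunits and 0.13 over all genes. The smallest adjusted p among the subunits was 0.234, and their 95% intervals lay between -0.34 for RPN2 and 0.28 for PRE10. In folds, these outer bounds are 0.791 and 1.21. By subcomplex the median was -0.039 in the core, -0.027 in the ATPases and -0.041 in the non-ATPases.

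Within each subcomplex the highest and lowest fitted values are as follows. PRE10 (YOR362C), the alpha 7 subunit, had 265, 271 and 293 CPM in treated NTT1 libraries, against 271, 240 and 278 in untreated ones, a log2 fold change of 0.070 (SE 0.094, edgeR adjusted p 0.703). PRE5 (YMR314W), the alpha 6 subunit, had 202, 196 and 208 CPM in treated libraries, against 230, 218 and 231 in untreated ones, a log2 fold change of -0.17 (SE 0.076, edgeR adjusted p 0.234). The PRE5 groups did not overlap, whereas those of PRE10 did, and PRE10 was at 0.0081 without untreated NTT1 replicate 2 and at 0.11 without replicate 3.

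Among the ATPases, RPT3 (YDR394W) had 281, 301 and 312 CPM in treated NTT1 libraries, against 300.4, 278 and 299 in untreated ones, a log2 fold change of 0.028 (SE 0.093, edgeR adjusted p 0.895). RPT2 (YDL007W), whose tail opens the gate of the core, had 279, 264 and 291 CPM in treated libraries, against 310.1, 292 and 302 in untreated ones, a log2 fold change of -0.12 (SE 0.082, edgeR adjusted p 0.438). Treated and untreated libraries overlapped for RPT3, and for RPT2 the highest treated library was just under the lowest untreated one.

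Among the non-ATPases, RPN9 (YDR427W), a lid subunit, had 185, 184 and 179.9 CPM in treated NTT1 libraries, against 175, 175 and 178 in untreated ones, a log2 fold change of 0.058 (SE 0.073, edgeR adjusted p 0.682). RPN13 (YLR421C) had 113, 119 and 115 CPM in treated libraries, against 121, 129 and 130.1 in untreated ones, a log2 fold change of -0.13 (SE 0.073, edgeR adjusted p 0.324). Neither pair of groups overlapped. Of the 32 subunits, the ranges of treated and untreated NTT1 libraries did not overlap for 6, with RPN9 higher and PRE5, PRE1, RPT2, RPN5 and RPN13 lower with ATP. Over all genes 18.5% were higher and 17.7% lower by this measure. The 5 lower of 32 are near that background, and the 1 higher of 32 is below it.

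In wild type, RPN4 was the 1 member of 33 that passed the test for ATP, where 12.7% of all genes passed, 5.42% as higher and 7.31% as lower. It measured 112, 114 and 115 CPM in treated wild-type libraries, and 167, 187 and 137 CPM in untreated ones. Each treated library was below each untreated one, as for 13.7% of all genes, and the treated libraries lay closer together than the untreated ones. RPN4 fell to 114 ± 1.61 CPM in treated wild type, against 164 ± 24.95 CPM in untreated wild type (SD, n = 3 each), a fold of 0.695 and a log2 fold change of -0.52 (SE 0.10, 95% interval -0.75 to -0.30, edgeR adjusted p 0.0152).

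The size of this fall depended on single untreated libraries. It was -0.42 (adjusted p 0.0457) without untreated wild-type replicate 2 and -0.64 (adjusted p 0.000154) without untreated wild-type replicate 3. The call was lost in 4 of the 12 edgeR fits that left out 1 library, with an adjusted p of 0.0580 without untreated wild-type replicate 1 and of 0.0611, 0.0503 and 0.0603 without treated wild-type replicates 1, 2 and 3. Fitting the 6 wild-type libraries by themselves gave an adjusted p of 0.104 at a log2 fold change of -0.53.

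**Figure D2:**
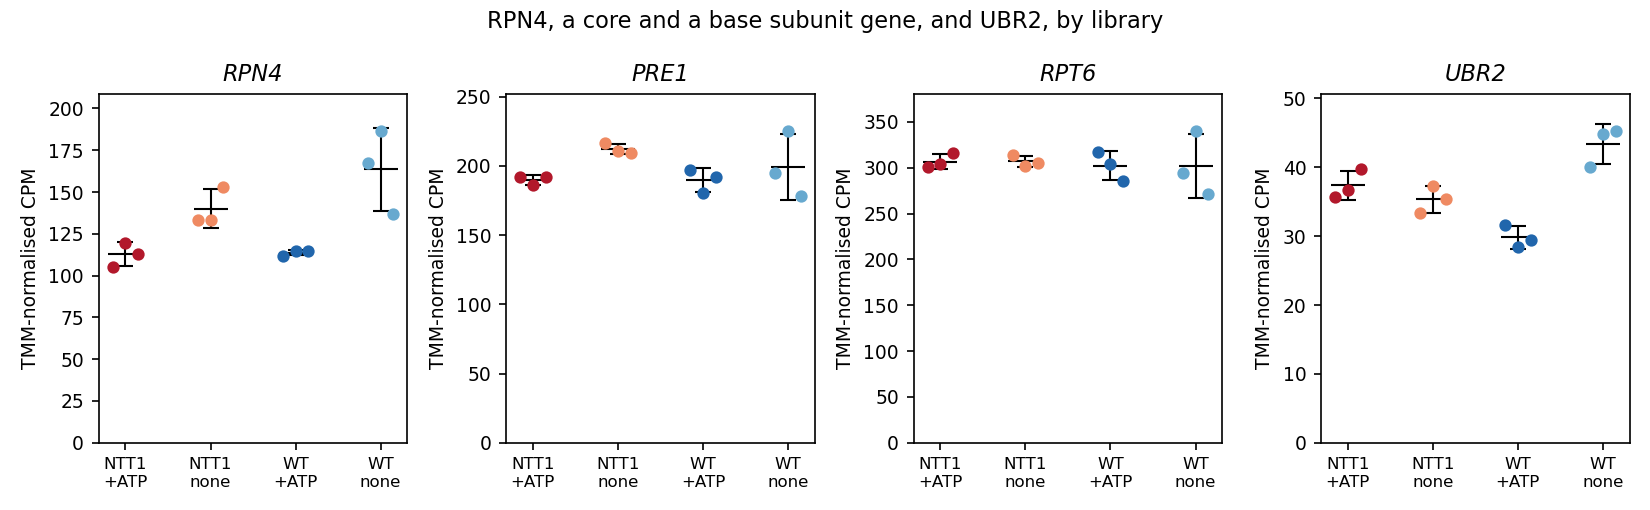
TMM-normalised CPM (y axis, from 0) of RPN4, of the subunit genes PRE1 and RPT6, and of UBR2 in the 12 libraries; each dot is a library, and the dash and bars are the mean and SD of 3 libraries. RPN4 lies at 105 to 120 CPM in the 6 treated libraries and at 133 to 187 CPM in the 6 untreated ones, and UBR2 at 28.5 to 31.7 CPM in treated wild type.

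None of the 32 subunits was called beside RPN4 in wild type. Their median log2 fold change was -0.0035, with 14 of 32 above 0, a range from -0.11 to 0.12 and a median size of 0.025, against 0.15 over all genes tested. By edgeR 0 of 32 passed, where 784 of all genes did, and 0 had an unadjusted p under 0.05, where 1845 of all genes did. Their 95% intervals lay between -0.32 for RPN2 and 0.28 for PUP1, or folds of 0.803 and 1.21, and for 0 of 32 did treated and untreated ranges separate, against 13.4% of all genes as higher and 13.7% as lower. The interval of RPN4 overlaps that of RPN2, and a difference between RPN4 and a subunit was not tested. These intervals use a spread estimated over all 4 groups. The median SD of a subunit's log2 CPM was 0.17 in untreated wild type and 0.036 to 0.062 in the other groups. The intervals do not show that a subunit was the same in both groups.

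PUP1 (YOR157C), which encodes the beta 2 subunit with trypsin-like activity, had 186, 192 and 186 CPM in treated wild type, against 175, 188 and 157 in untreated wild type, a log2 fold change of 0.12 (SE 0.073, edgeR adjusted p 0.303). PRE1 (YER012W), the beta 4 subunit, had 197, 180.3 and 192 CPM in treated libraries, against 195, 225 and 178 in untreated ones, a log2 fold change of -0.072 (SE 0.080, edgeR adjusted p 0.591). Both were the outermost of the 14 core genes, and their groups overlapped. PUP1 was at 0.18 without untreated wild-type replicate 2 and at 0.052 without replicate 3.

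RPT3 had 303, 287 and 295 CPM in treated wild type, against 272, 332 and 252 in untreated wild type, a log2 fold change of 0.046 (SE 0.093, edgeR adjusted p 0.780). RPT4 (YOR259C) had 256, 238 and 251 CPM in treated libraries, against 260.3, 306 and 239.8 in untreated ones, a log2 fold change of -0.11 (SE 0.083, edgeR adjusted p 0.387). For RPT3 the treated libraries lay within the range of the untreated ones, and for RPT4 the ranges overlapped. RPT4 was at -0.0097 without untreated wild-type replicate 2 and at -0.19 without replicate 3.

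RPN10 (YHR200W), the ubiquitin receptor between base and lid, had 196, 196 and 191 CPM in treated wild type, against 188, 203 and 171 in untreated wild type, a log2 fold change of 0.054 (SE 0.069, edgeR adjusted p 0.648). RPN2 (YIL075C), the other large scaffold of the base, had 519.7, 492 and 464 CPM in treated libraries, against 509, 614 and 464 in untreated ones, a log2 fold change of -0.10 (SE 0.096, edgeR adjusted p 0.506). In RPN2 untreated replicate 2 lay well above all other wild-type libraries.

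The proteolytic subunits PRE3 and PRE2 and the deubiquitinase RPN11 are given for their roles, whatever their values. PRE3 (YJL001W), the beta 1 subunit, had a log2 fold change with ATP of -0.064 (SE 0.085) in NTT1 and of 0.046 (SE 0.085) in wild type. PRE2 (YPR103W), the beta 5 subunit with chymotrypsin-like activity, was at -0.013 (SE 0.091) in NTT1 and 0.010 (SE 0.091) in wild type. RPN11 (YFR004W) was at -0.078 (SE 0.069) in NTT1 and 0.014 (SE 0.069) in wild type. None of these genes passed the test in either strain.

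**Figure D3:**
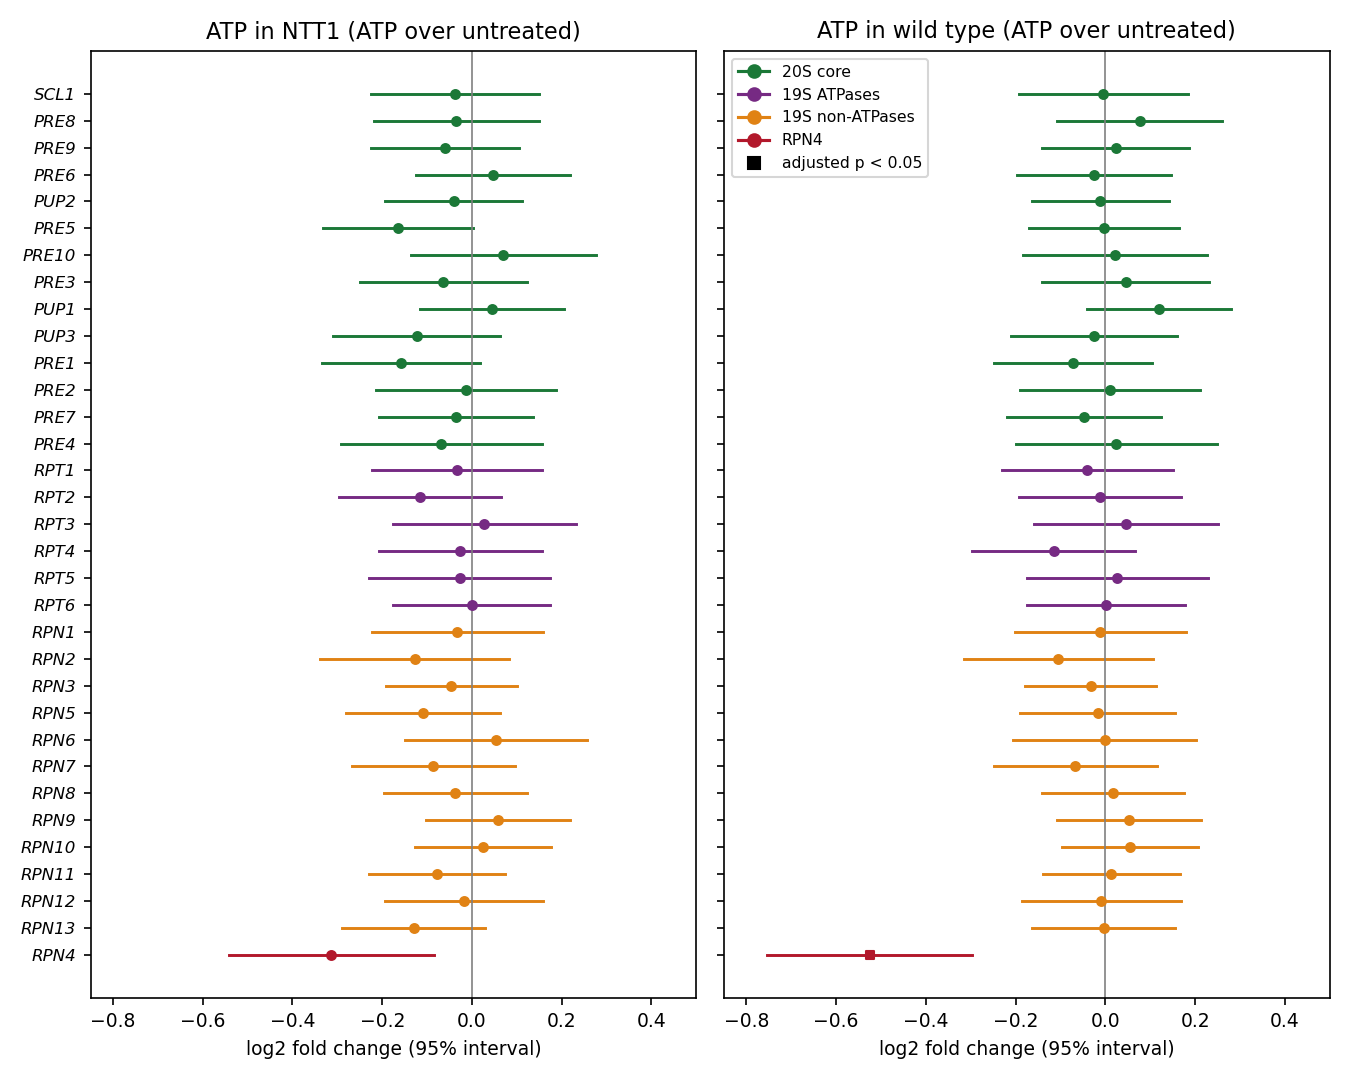
Fitted log2 fold change of each of the 33 members for ATP over untreated (x axis) in NTT1 (left) and in wild type (right), with 95% intervals that are not adjusted over genes; squares mark an adjusted p under 0.05. The intervals of all 32 subunits include 0 in both panels, and that of RPN4 lies below 0 in both, at -0.31 and -0.52.

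The untreated wild-type replicates differed in the whole complex at once. All 32 subunits were highest in replicate 2 and lowest in replicate 3 of that group, whereas over all genes 35.7% were highest in replicate 2 and 38.1% lowest in replicate 3. The other groups also had a shared order, though a less complete one. Treated NTT1 replicate 3 was highest for 25 of 32 subunits, against 30.6% of all genes. Untreated NTT1 replicate 2 was lowest for 26 of 32, against 34.2%. Treated wild-type replicate 1 was highest for 21 of 32, against 33.9%. Relative to each gene's mean over the 12 libraries, the median log2 CPM of the subunits was -0.050, 0.15 and -0.18 in untreated wild-type replicates 1, 2 and 3. It lay between -0.030 and 0.031 in treated NTT1, between -0.010 and 0.093 in untreated NTT1; treated wild type spanned -0.029 to 0.0081. The medians over all genes stayed between -0.0011 and 0.0061 in the 12 libraries. The within-group SD of a subunit's log2 CPM had a median of 0.044 in treated NTT1, 0.062 in untreated NTT1, 0.036 in treated wild type and 0.17 in untreated wild type. Over all genes it was 0.082, 0.097, 0.072 and 0.17 in the same groups.

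The sign of the subunits' response in wild type rests on the untreated wild-type replicates. Without untreated wild-type replicate 2 the median over the 33 members was 0.086 with 31 above 0, and without replicate 3 it was -0.075 with 1 of the 32 subunits above 0. With no filter on low counts the median over the members was 0.0032. In none of these fits was a subunit called. In 94 pairs of a setting and a comparison, the main one included, 0 had a called subunit, and the smallest adjusted p of a subunit in any was 0.0663, for ATP in wild type without untreated replicate 3, where 33.7% of all genes were called.

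RPN4 can be read against the subunits of the same library. The difference between the centred log2 CPM of RPN4 and the median of the 32 subunits was -0.28, -0.11 and -0.24 in treated NTT1, and -0.060, 0.042 and 0.17 in untreated NTT1. In treated wild type it was -0.23, -0.16 and -0.16, and in untreated wild type 0.41, 0.36 and 0.25. Treated libraries were below untreated ones in both strains. By this difference untreated NTT1 was below untreated wild type, at 0.052 ± 0.12 and 0.34 ± 0.081 (SD, n = 3 each), while the treated groups overlapped. The CPM of RPN4 itself overlapped between the untreated strains. In untreated wild-type replicate 3 the subunit median that is subtracted was -0.18. How many of all genes separate by such a difference was not counted. The differences from the subunit median are a description, since the subunits were chosen as a group.

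**Figure D4:**
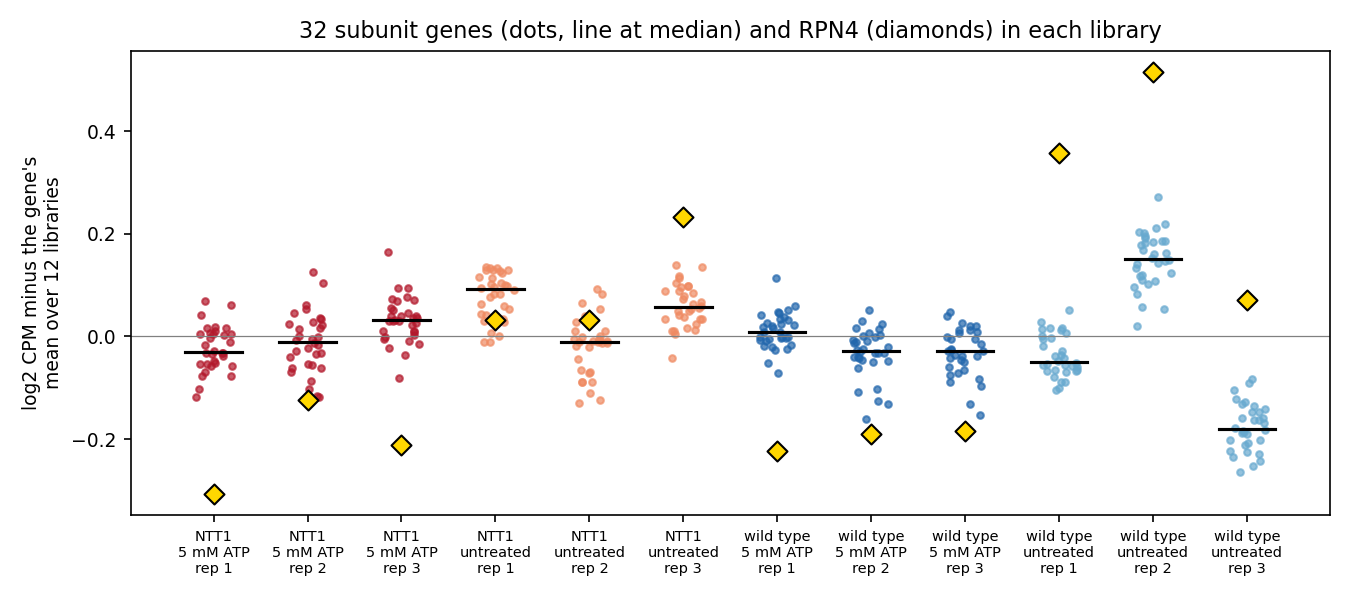
Log2 CPM minus the gene's mean over 12 libraries (y axis) for the 32 subunit genes (dots, with a line at their median) and RPN4 (diamonds) in each library (x axis). RPN4 lies below the subunit median in the 6 treated libraries and above it in 5 of the 6 untreated ones, and the subunits of untreated wild-type replicates 2 and 3 lie apart at 0.15 and -0.18.

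With ATP in the medium, RPN4 and the subunits were compared between the strains. No member passed the edgeR test for NTT1 against wild type with ATP, and 0 of 33 had an unadjusted p under 0.05, where 0.065% of all genes passed, 0.0162% as higher and 0.0487% as lower, and 278 had such a p. RPN4 measured 113 ± 7.17 CPM in treated NTT1 and 114 ± 1.61 CPM in treated wild type (SD, n = 3 each), a log2 fold change of -0.013 (SE 0.10, 95% interval -0.24 to 0.22, edgeR adjusted p 0.999). The subunits had a median log2 fold change of 0.0087 with 21 of 32 above 0, against 0.0014 and 50.7% over all genes, and their intervals lay between -0.25 and 0.31. The subunit median turned to -0.0071 with 15 above 0 without treated NTT1 replicate 3, and was 0.025 with 24 above 0 without treated wild-type replicate 1. The ranges of the strains did not overlap for 4 subunits, PRE6, RPT4 and RPN6 as higher and RPN13 as lower in NTT1, where 8.2% of all genes were higher and 7.97% lower.

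Without ATP, 0 of the 33 members passed for NTT1 against wild type, where 0.0487% of all genes passed, 0.0325% as higher and 0.0162% as lower, and 0 had an unadjusted p under 0.05, where 597 of all genes did. The subunits were mostly above 0 in sign and small in size: 31 of 32 had a positive log2 fold change, against 50.3% of all genes, with a median of 0.051 and a highest value of 0.13. The core genes had a median of 0.081 with 14 of 14 positive, the ATPases 0.030 with 5 of 6 and the non-ATPases 0.043 with 12 of 12. For 0 of 32 subunits did the ranges of the strains separate, where 4.27% of all genes were higher and 5.13% lower. The signs of the subunits are not independent, since all 32 share untreated wild-type replicate 3 as their lowest library of that group, and without it the median over the members was -0.023, while without replicate 2 it was 0.15.

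In the same comparison RPN4 measured 133, 133 and 153 CPM in untreated NTT1 and 167, 187 and 137 CPM in untreated wild type, with overlap. The log2 fold change was -0.22 (SE 0.10, 95% interval -0.45 to 0.0037, edgeR adjusted p 0.521). Without untreated wild-type replicate 3 it was -0.34 with an adjusted p of 0.0242, and without replicate 2 it was -0.11 with an adjusted p of 0.753, so the call rests on which untreated library is kept.

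The interaction subtracts the response to ATP of wild type from that of NTT1 and asks whether the strains responded differently. No member passed, as did 0% of all genes, and 0 of 33 had an unadjusted p under 0.05, where 365 of all genes did. For RPN4 the difference was 0.21 (SE 0.15, 95% interval -0.11 to 0.53, edgeR adjusted p 0.951), so the smaller value in NTT1 is not shown to differ from that in wild type. The subunits had a median of -0.030 with 7 of 32 above 0 and intervals between -0.41 and 0.34. The largest in size was PRE5, at -0.16 (SE 0.11, edgeR adjusted p 0.945).

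The subunits were also set out by an exact match to the control element. For ATP in NTT1 the 27 genes with it had a median log2 fold change of -0.035 and the 5 without it -0.037. For ATP in wild type the medians were -0.0088 and 0.017. For NTT1 against wild type they were 0.0093 with a match and -0.018 without it in treated cultures, and 0.045 and 0.080 in untreated ones. For the interaction they were -0.022 with a match and -0.074 without it. With 5 genes in the smaller set these are descriptions. Those 5 hold the near forms given above, so the split is by exact letters. Binding of Rpn4 was not tested.

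Other genes of the pathway were read from 4 lists of 31 genes in all, each of which was tested. The 10 assembly chaperones, which help to put the core and the base together, had 0 calls in any of the 5 comparisons. Over all genes 4.47% were called for ATP in NTT1, 12.7% for ATP in wild type, and 0.065% or less in the other comparisons. In a list this small, 0 calls are not a result about its genes. The promoters of the assembly chaperones held an exact match to the element in 0 of 10. It was present in 1 of 6 promoters of associated genes (ECM29) and in 1 of 7 of the genes that control RPN4 (YAP1). Of the ubiquitin and shuttle genes, 3 of 8 had it (UBA1, UBI4 and CDC48), against 1.2% of all protein-coding promoters. RPN14, a chaperone of the base, had the smallest p for ATP in NTT1. It measured 40.0, 39.3 and 43.3 CPM in treated NTT1, against 49.2, 48.6 and 46.9 in untreated NTT1, a log2 fold change of -0.24 (SE 0.067, edgeR adjusted p 0.0666). All treated libraries of RPN14 lay below the untreated ones, as for 17.7% of all genes. Its adjusted p was 0.0259 by DESeq2, and ran from 0.0126 to 0.209 over the fits that left out 1 library. POC4, a chaperone of the core, had the smallest p for ATP in wild type, at 24.7, 21.4 and 22.1 CPM in treated and 21.1, 14.6 and 19.3 CPM in untreated libraries, a log2 fold change of 0.31 (SE 0.12, edgeR adjusted p 0.111), which was 0.17 without untreated wild-type replicate 2 and 0.42 without replicate 1.

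TMA17, a chaperone of the base that is named here after its values were seen, varied widely in untreated wild type. It measured 74.4, 88.2 and 75.3 CPM in treated wild type, against 153, 142 and 64.6 in untreated wild type, where replicate 3 lay below the treated libraries. Its log2 fold change was -0.60 (SE 0.24, edgeR adjusted p 0.128) in wild type and -0.58 (SE 0.24, edgeR adjusted p 0.199) in NTT1.

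The 6 proteasome-associated genes had 0 calls in the 5 comparisons, where at most 12.7% of all genes were called. The smallest p for ATP in NTT1 belonged to SEM1, a small lid subunit that is not among the 33 members, at a log2 fold change of -0.18 (SE 0.075, edgeR adjusted p 0.185). In wild type it belonged to HUL5, a ubiquitin chain elongating ligase, at -0.36 (SE 0.14, edgeR adjusted p 0.119). HUL5 was at -0.17 (adjusted p 0.424) without untreated wild-type replicate 2 and at -0.52 (adjusted p 0.00303) without replicate 3. Of the 8 genes for ubiquitin, its activation, shuttle factors and the Cdc48 unfoldase, 0 were called, against the same shares of all genes. In lists this small, 0 calls are not a result about their genes. DSK2, a shuttle factor, had the smallest p for ATP in NTT1. It measured 314, 311 and 287 CPM in treated NTT1, against 246, 152 and 212 in untreated NTT1, a log2 fold change of 0.58 (SE 0.18, edgeR adjusted p 0.0943). The adjusted p was 0.0296 by DESeq2, and ran from 0.0523 to 0.252 over the fits that left out 1 library. NPL4, a cofactor of Cdc48, had the smallest p for ATP in wild type, at -0.27 (SE 0.10, edgeR adjusted p 0.0990). NPL4 was at -0.15 (adjusted p 0.330) without untreated wild-type replicate 2 and at -0.40 (adjusted p 0.000690) without replicate 3.

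Of the 7 genes that control RPN4 or its protein, 1 was called, for ATP in wild type, where 12.7% of all genes were called. UBR2, the ubiquitin ligase that marks Rpn4 for degradation, was lower with ATP in wild type. It measured 31.7, 28.5 and 29.4 CPM in treated wild type, against 40.0, 44.9 and 45.3 in untreated wild type. The treated libraries all lay below the untreated ones, as for 13.7% of all genes. In NTT1 it measured 35.7, 36.7 and 39.8 CPM with ATP, against 33.4, 37.3 and 35.4 without, and these groups overlapped. The counts behind these values ran from 462 to 820 per library.

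With ATP in wild type the log2 fold change of UBR2 was -0.54 (SE 0.075, 95% interval -0.70 to -0.38, edgeR adjusted p 0.00611), a fold of 0.688. The call held whichever of the 12 libraries was left out, with adjusted p from 0.000670 to 0.0355. It was lost when the 6 wild-type libraries were fitted by themselves, with an adjusted p of 0.0627. In NTT1 the log2 fold change was 0.080 (SE 0.075, 95% interval -0.084 to 0.24, edgeR adjusted p 0.567). The gene lies at chrXII:187663-193281 in R64 and overlaps no other gene of the RefSeq annotation.

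The interaction for UBR2 was 0.62 (SE 0.11, 95% interval 0.39 to 0.85). Its unadjusted p of 0.000102 was the smallest of the 6157 genes, yet the edgeR adjusted p was 0.388, and the DESeq2 Wald test gave an adjusted p of 0.00224. Among the fits that left out 1 library the adjusted p ran from 0.0284, without untreated wild-type replicate 3, to 0.9998. The strain difference was 0.33 (SE 0.075, edgeR adjusted p 0.468) with ATP and -0.29 (SE 0.074, edgeR adjusted p 0.274) without it.

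The other genes of this list had adjusted p over 0.05 for ATP in both strains. RAD6 was nearest, at 0.20 (SE 0.061, edgeR adjusted p 0.0504) in wild type and -0.012 (SE 0.061, adjusted p 0.933) in NTT1. MUB1, the partner of Ubr2, was at 0.031 (SE 0.066, edgeR adjusted p 0.798) in wild type and -0.060 (SE 0.066, adjusted p 0.636) in NTT1. HSF1, the heat shock factor that acts on the RPN4 promoter, had the smallest p of the list for ATP in NTT1, at 0.25 (SE 0.084, edgeR adjusted p 0.111, and 0.0335 to 0.315 over the fits that left out 1 library). Of the remaining named genes, those with the smallest p of their list between the strains were HSM3, SEM1 and CDC48 with ATP, PBA1, SPG5 and DSK2 without ATP, and IRC25, SEM1 and UFD1 for the interaction, with adjusted p from 0.484 to 0.999.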

How the data were processed

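How RNA was selected, whether reads were counted by strand and the annotation release are not given in the sources used here. The deposited table holds the authors' raw gene counts for 12 libraries, which are whole numbers with different totals, from 14845855 to 20714804. Per the submitters' processing notes, HISAT2 2.0.5, featureCounts 1.5.0, DESeq2 1.20.0 and the R64 build were used. Per the labels' protocols, RNA came from a Zymo Research kit and the library kit was an Illumina TruSeq one. Libraries were assigned to groups by title and columns by library name.

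The test was the quasi-likelihood one of edgeR 4.0.16 (glmQLFit, glmQLFTest; R 4.3.3), after filterByExpr, with TMM scaling, 1 mean per group and all 12 libraries in 1 fit. Benjamini-Hochberg adjustment covered 6157 genes, and a call is an adjusted p under 0.05. Fold changes use a prior count of 0.125 and log2 CPM a prior count of 2. SE are approximate, the log2 fold change over the root of F, and give the 95% intervals. An exact test of 3 against 3 libraries cannot go below a two-sided p of 0.1, so none was run. On counts simulated for ATP in NTT1, with 200 of 6139 genes changed by a log2 of 1, 95% of the changed genes were called, and 4.04% of the calls were false. The simulated spread followed the trend over genes. Smaller changes, such as those of the members, were not simulated, so the share called does not apply to them.

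Members and lists were chosen with earlier results of these data known. The text names RPN4, members past the threshold, the highest and lowest of each subcomplex for ATP in each strain, and the gene with the smallest p of each pathway list. None of the 33 members overlaps another gene of the RefSeq R64 annotation; features of the count table outside that annotation were not placed. Without strand, reads of an antisense transcript would be counted with the gene. Alternatives were RLE or upper-quartile scaling, no filter, DESeq2 1.42.0, a replicate block, fits of the groups compared alone, and leaving out each library. Promoter windows were read from the R64 genome by RefSeq coordinates, since no table of promoters was used. SEM1 was matched under the tag YDR363W_A. Levels of the NTT1 construct were not analysed here, so strain labels were not checked by it.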

Additional observations from a re-analysis of the deposited data

How the results depend on the processing

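With DESeq2 the genes called numbered 586 for ATP in NTT1, 12 and 41 for NTT1 against wild type with and without ATP, and 6 for the interaction. Fits of the groups compared alone called 950 genes and 1 member, RPN4, for ATP in NTT1, 19 genes and 0 members for ATP in wild type, and 0 genes for NTT1 against wild type without ATP. No such fit was run for the interaction, which uses all 4 groups. Leaving out 1 library gave 69 to 1030 genes and 0 to 1 members for ATP in NTT1, with a member median from -0.072 to -0.013, and 89 to 2086 genes and 0 to 1 members for ATP in wild type, with a member median from -0.075 to 0.086. It gave 1 to 6 genes for NTT1 against wild type with ATP, with a median from -0.0092 to 0.024. Without ATP it gave 2 to 602 genes, 0 to 1 members and a median from -0.023 to 0.15, and for the interaction 0 to 106 genes and a median from -0.14 to 0.037. The highest of these gene counts came without untreated wild-type replicate 3. The cause was not tested. RPT3 for ATP in NTT1 changed sign, uncalled, with upper-quartile factors (-0.0065); leaving out 1 library it ran from -0.0070, with -0.0055 without treated NTT1 replicate 3, to 0.068. For ATP in wild type, leaving out 1 library gave ranges across 0, all uncalled, for PRE1 (-0.15 to 0.026), RPN2 (-0.19 to 0.018), RPT3 (-0.036 to 0.17) and RPN10 (-0.0066 to 0.12). RPN4 for NTT1 against wild type with ATP ran from -0.059 to 0.032. Of 661 recomputed values of single genes, 6 lost and 15 gained a call. The replicate block changed no call of a member: RPN4 in wild type stayed at -0.52 (adjusted p 0.0233). Replicate numbers were not shown to pair the samples, since 5 of 18 same-numbered pairs had a correlation of deviations over 0.1. With 3 libraries a group, a difference in a subunit that lies inside that subunit's own interval is not excluded. The bounds given above are the outermost over the subunits and are not limits of detection. The smallest difference that could be detected was not tested.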
